A study of Homo sapiens with 27 samples.

Results

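The 9 genes described here make prostaglandin E2, break it down or receive it, and they were taken from the count table by the Entrez identifiers of PTGS1, PTGS2, PTGES, PTGES2, PTGES3, HPGD, PTGER2, PTGER4 and PLA2G4A. All 9 were found among the 24566 rows of the table, and all 9 passed the filter on low counts in each of the 3 fits. RNA was sequenced in 27 libraries of 9 groups, with 3 biological replicates each, after 48 h of treatment. A431, an established human epidermoid carcinoma line, was left untreated, given a vehicle control whose nature the labels do not state, given Compound Kushen Injection (CKI), an extract of the herbs Kushen and Baituling, at 1 mg/ml, given doxorubicin, a topoisomerase inhibitor whose dose is not stated for these libraries, or given CKI plus doxorubicin. MDA-MB-231, an established human breast adenocarcinoma line, was left untreated, given CKI at 1 mg/ml, given 5-FU (5-fluorouracil, which blocks thymidylate synthesis) at 10 ug/ml, or given CKI plus 5-FU. Each line was grown in the same serum-supplemented medium, and each is a single established line, so the replicates carry no spread between donors. No vehicle control of MDA-MB-231 is among the groups.

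Prostaglandin E2 is made from arachidonic acid, which a phospholipase frees from membranes. A cyclooxygenase turns it into the unstable prostaglandin H2, and a terminal synthase turns that into prostaglandin E2, which acts through receptors on the cell surface until it is taken up and oxidised. The pathway is known for inflammation and pain, and many carcinomas raise its inducible cyclooxygenase.

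PTGS2, the inducible cyclooxygenase, and PTGER4, a receptor of prostaglandin E2 that raises cAMP, moved in the same direction in several comparisons given further on, so the sequence before their start sites is shown for them alone. When CKI was added to doxorubicin, and when 5-FU was added to CKI, PTGS2 was higher and PTGER4 lower. Shared control of the pair was not tested. Each window holds the 250 bases before the start in the RefSeq table of GRCh38.p14, read 5′ to 3′ along the gene, with every match to a searched motif in capitals. The PTGS2 window is chr1:186680424-186680673 on the reverse strand, and the PTGER4 window is chr5:40679665-40679914 on the forward strand.
PTGS2: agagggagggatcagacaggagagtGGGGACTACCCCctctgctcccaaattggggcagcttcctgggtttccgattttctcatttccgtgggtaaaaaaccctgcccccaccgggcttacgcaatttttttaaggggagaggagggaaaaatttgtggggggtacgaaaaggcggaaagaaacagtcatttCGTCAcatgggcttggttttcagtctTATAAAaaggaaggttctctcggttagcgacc
PTGER4: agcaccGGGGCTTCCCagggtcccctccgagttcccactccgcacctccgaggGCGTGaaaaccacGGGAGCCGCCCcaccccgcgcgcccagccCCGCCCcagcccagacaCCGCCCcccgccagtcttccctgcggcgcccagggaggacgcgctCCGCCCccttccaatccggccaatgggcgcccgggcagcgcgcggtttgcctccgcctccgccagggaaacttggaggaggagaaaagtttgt
Each motif was searched on both strands. TATAAA is the TATA box that places the start of transcription, and TGACG is part of the element bound by CREB, the factor that answers cAMP. A loose form of the NF-kappa-B motif was taken as GGG and CC with any 5 bases between them. TGANTCA is the AP-1 motif, GCGTG stands for the core of the element that the aryl hydrocarbon receptor binds, and the GC box was searched as GGGCGG. In the PTGS2 window, TATAAA starts 32 bases before the start site, TGACG lies on the other strand 58 bases before it, and the loose NF-kappa-B motif gave 4 overlapping matches beginning 223 to 225 bases before it. The PTGER4 window has no TATAAA, 4 GC boxes between 93 and 179 bases before the start, 1 GCGTG at 197 bases and 4 matches to the loose NF-kappa-B motif, of which the pair at 183 and 184 bases shares bases with a GC box. Among 35116 promoter windows of that length, 10.7% hold TATAAA, 21.2% TGACG, 54.4% the loose NF-kappa-B motif, 6.57% TGANTCA, 32.2% GCGTG and 42.6% GGGCGG. The 9 genes have 13 windows in the table, of which 2 hold TATAAA, 4 TGACG, 10 the loose NF-kappa-B motif, 7 GCGTG and 10 GGGCGG. None of the 13 holds TGANTCA.

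Levels are given as CPM, the usual unit of counts relative to the total of their library, after TMM scaling over all 27 libraries. A431 libraries held 17757206 to 21756536 counts and MDA-MB-231 libraries 19871048 to 22809339, and 3 counts in a library corresponded to 0.133 to 0.186 CPM on that scale. A change was called where edgeR's quasi-likelihood test gave a Benjamini-Hochberg adjusted p under 0.05 over all genes of the fit and the log2 fold change was beyond 1 in either direction. "Rose" and "fell" are used below for called changes. The 8 genes chosen to mark A431 were EGFR, KRT5, KRT14, KRT17, TP63, CDH1, DSP and SFN. They summed to 7405 to 10610 CPM in its libraries and to 554 to 778 CPM in those of MDA-MB-231. There KRT5, KRT14, TP63 and CDH1 stayed under 2 CPM on average in every group, and the rest of the sum came from EGFR, KRT17, DSP and SFN. CYP1A1, a target of the aryl hydrocarbon receptor used as a check of the CKI labels, was at 432 to 460 CPM in A431 with CKI against 3.41 to 5.04 CPM in the untreated and vehicle control libraries, and at 93.2 to 99.0 CPM in MDA-MB-231 with CKI against 0.880 to 1.77 CPM untreated. CYP1A1 and CYP1B1, also chosen for the check, both rose with CKI in each line and when CKI was added to 5-FU. Of the pair, 1 rose when CKI was added to doxorubicin, 1 with doxorubicin and 1 with 5-FU, so a rise of 1 of the pair was not particular to CKI. When doxorubicin was added to CKI, 1 of them fell. Untreated MDA-MB-231 replicate 1 stood apart from its group, with the largest deviation of any library from its group mean (0.363 on the log2 scale over genes) and with deviations that ran with GC content (Spearman's rho across genes -0.59). The A431 vehicle control replicates 1 and 3 tilted with GC content in opposite directions (rho -0.50 and 0.55).

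PTGES3, which codes for both a cytosolic prostaglandin E synthase and the HSP90 co-chaperone p23, was the most abundant of the 9 per length in every group. Divided by the length of the canonical transcript, its level was 299 CPM per kb in untreated A431 and 185 CPM per kb in untreated MDA-MB-231. PTGES2, a membrane-bound synthase, followed at 94.2 and 55.8 CPM per kb. In untreated A431 the next was PTGS1, the constitutive cyclooxygenase, at 40.7 CPM per kb, then PTGES, the inducible microsomal synthase, at 20.7, whereas in untreated MDA-MB-231 PTGES (13.6) came before PTGER4 (2.68), PTGS2 (1.67) and PLA2G4A (0.799), and PTGS1 was the lowest of the 9 at 0.125 CPM per kb. HPGD, the dehydrogenase that inactivates prostaglandins, was the lowest in untreated A431 at 0.0841 CPM per kb. The 4 genes under 2 CPM per kb in untreated A431 besides HPGD were PLA2G4A, PTGER2, PTGER4 and PTGS2.

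**Figure D1:**
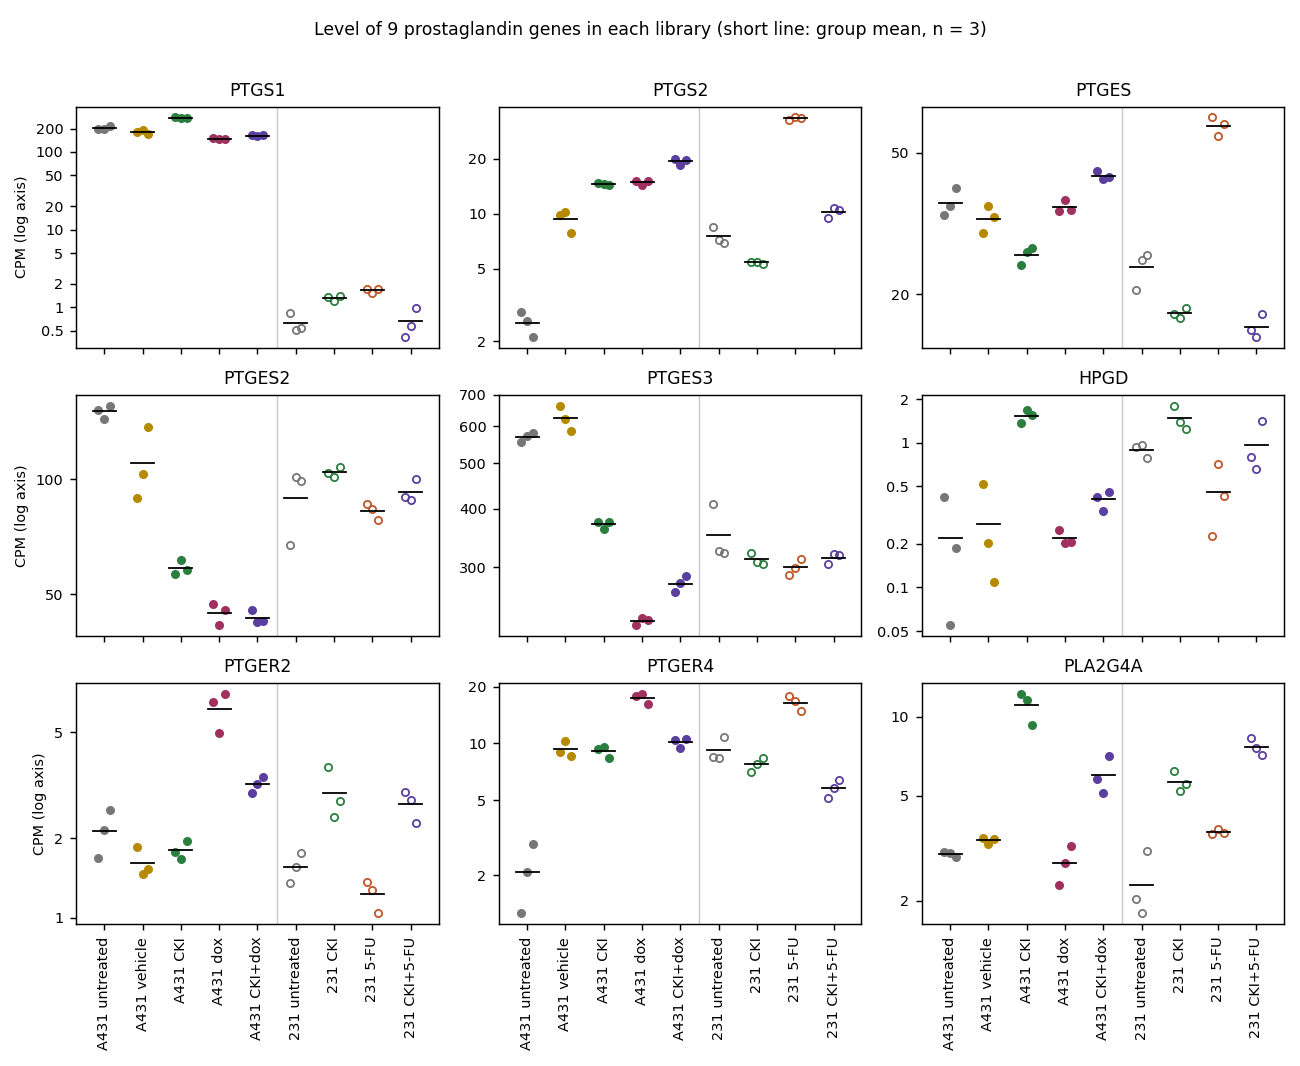
Level of each of the 9 genes in each of the 27 libraries, in CPM on log axes that differ between panels; filled points are A431, open points are MDA-MB-231 (labelled 231), dox is doxorubicin, and a short line marks the mean of 3 libraries. PTGS1 lies at 145 CPM or more in all A431 libraries and under 2 CPM in all MDA-MB-231 libraries, and PTGS2 is lowest in untreated A431 and highest in MDA-MB-231 with 5-FU.

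PLA2G4A, the cytosolic phospholipase A2 that frees arachidonate, rose with CKI in both lines, on top of doxorubicin and on top of 5-FU. In GRCh37 the gene spans bases 186798081 to 186958113 of chromosome 1, forward strand, close to PTGS2 on the same chromosome. In A431 its level was 3.06, 3.03 and 2.92 CPM untreated, 3.46, 3.27 and 3.44 CPM with the vehicle, and 12.2, 11.6 and 9.30 CPM with CKI. All CKI libraries lay above all libraries of both controls, and the controls lay close together. Its log2 fold change with CKI was 1.80 ± 0.15 (SE, adjusted p = 3.1e-10) against untreated and 1.61 ± 0.15 (adjusted p = 1.3e-09) against the vehicle, while the vehicle differed from untreated by 0.19 ± 0.18 (adjusted p = 0.42). In MDA-MB-231 the level was 2.03, 1.79 and 3.08 CPM untreated and 6.21, 5.23 and 5.54 CPM with CKI, again without overlap, and it rose by 1.29 ± 0.17 (adjusted p = 1.3e-04). The CKI effect in A431 exceeded that in MDA-MB-231 by 0.51 ± 0.26, which did not pass the test (95% interval -0.05 to 1.08, adjusted p = 0.13). With doxorubicin alone PLA2G4A was at 2.30, 2.79 and 3.23 CPM, overlapping untreated A431, and with CKI plus doxorubicin at 5.78, 5.14 and 7.07 CPM, a rise of 1.14 ± 0.16 over doxorubicin (adjusted p = 1.7e-06). With 5-FU alone it was at 3.60, 3.74 and 3.60 CPM, and with CKI plus 5-FU at 8.33, 7.60 and 7.15 CPM, a rise of 1.08 ± 0.16 over 5-FU (adjusted p = 1.3e-04). The CKI plus doxorubicin libraries lay below all libraries of CKI alone. That difference was -0.83, inside the fold threshold, and it was -1.04 and called with offsets for GC content and length. The interaction terms of CKI with either drug were not called for this gene (-0.66 with doxorubicin and -0.22 with 5-FU).

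PTGS1 and PTGS2 differed in opposite directions between the lines. PTGS1 (chromosome 9, 125132809 to 125157982, forward strand, GRCh37) was at 200, 200 and 213 CPM in untreated A431 and at 0.835, 0.505 and 0.538 CPM, that is 16, 11 and 11 counts, in untreated MDA-MB-231. That was 8.39 ± 0.13 higher in A431 on the log2 scale (adjusted p = 1.1e-14). PTGS2 (chromosome 1, 186640923 to 186650054, reverse strand) was at 2.88, 2.59 and 2.11 CPM in untreated A431 and at 8.45, 7.16 and 6.94 CPM in untreated MDA-MB-231, which was 1.53 ± 0.13 lower in A431 (adjusted p = 1.9e-07). That direction held only against untreated A431, because PTGS2 was 0.37 higher in A431 when the vehicle control stood for that line. Because the libraries are unstranded, reads of PTGS2 and of PACERR, an antisense RNA whose exons overlap it over 219 bases, cannot be told apart.

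In A431, PTGS2 rose with the vehicle, with CKI and with doxorubicin. The vehicle libraries were at 9.86, 10.2 and 7.86 CPM, the CKI libraries at 14.7, 14.5 and 14.3 CPM, and the doxorubicin libraries at 15.1, 14.4 and 15.1 CPM. All 9 of these lay above all untreated libraries, CKI and doxorubicin overlapped each other, and the vehicle lay between them and untreated. Against untreated cells the log2 fold change was 1.89 ± 0.13 with the vehicle (adjusted p = 3.0e-10), 2.44 ± 0.13 with CKI (adjusted p = 5.8e-14) and 2.501 ± 0.125 with doxorubicin (adjusted p = 2.3e-14). Against the vehicle the difference with CKI was 0.55 ± 0.10 (adjusted p = 4.15e-05) and with doxorubicin 0.61, neither of them past the fold threshold. CKI plus doxorubicin brought PTGS2 to 20.0, 18.4 and 19.6 CPM, the highest of the A431 groups, 0.41 ± 0.09 over doxorubicin (adjusted p = 3.9e-04) and 0.47 ± 0.09 over CKI (adjusted p = 7.5e-05). PTGS1 was at 277, 274 and 276 CPM with CKI, above all other A431 libraries, and at 152, 145 and 147 CPM with doxorubicin, below all of them, with differences from untreated of 0.36 ± 0.05 (adjusted p = 2.9e-06) and -0.52 ± 0.05 (adjusted p = 8.2e-09) that stayed inside the fold threshold.

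In MDA-MB-231, PTGS2 rose with 5-FU and fell when CKI was added to 5-FU. With 5-FU it was at 32.5, 33.7 and 33.6 CPM, the highest level of any group, and with CKI plus 5-FU at 9.45, 10.7 and 10.4 CPM. The 5-FU libraries lay far above the other libraries of the line, and the combination still lay above untreated cells. The log2 fold change was 2.15 ± 0.09 for 5-FU against untreated (adjusted p = 5.7e-09) and -1.70 ± 0.09 for CKI plus 5-FU against 5-FU (adjusted p = 3.9e-08). CKI alone gave 5.45, 5.46 and 5.30 CPM, below all untreated libraries, at -0.48 ± 0.10 (adjusted p = 0.0025), which stayed inside the fold threshold. PTGS1 in this line rested on few reads. It rose with CKI to 1.35, 1.20 and 1.40 CPM (1.08 ± 0.29, adjusted p = 0.012) and with 5-FU to 1.73, 1.51 and 1.71 CPM (1.41 ± 0.28, adjusted p = 9.4e-04), and at 0.419, 0.575 and 0.994 CPM with CKI plus 5-FU it fell by 1.31 ± 0.27 from 5-FU (adjusted p = 0.0016). The call with CKI was lost without untreated replicate 2 (0.94) or untreated replicate 3 (0.99).

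Per length, PTGS1 exceeded PTGS2 in every A431 group and PTGS2 exceeded PTGS1 in every MDA-MB-231 group. The share of PTGS2 in the summed level of both, in CPM per kb, was 1.36% ± 0.25 (SD, n = 3) in untreated A431, 5.40% ± 0.45 with the vehicle, 5.53% ± 0.07 with CKI, 10.1% ± 0.2 with doxorubicin and 11.7% ± 0.4 with CKI plus doxorubicin. The vehicle and CKI shares overlapped, and all other neighbours in that order lay apart. In MDA-MB-231 it was 93.1% ± 1.1 untreated, 82.0% ± 1.3 with CKI, 95.7% ± 0.4 with 5-FU and 94.6% ± 2.2 with CKI plus 5-FU. CKI alone gave the lowest share of that line, with no overlap with the other groups, and the share with CKI plus 5-FU overlapped both untreated and 5-FU. Counts do not show whether a gene has more RNA in each cell or more cells that carry it.

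**Figure D2:**
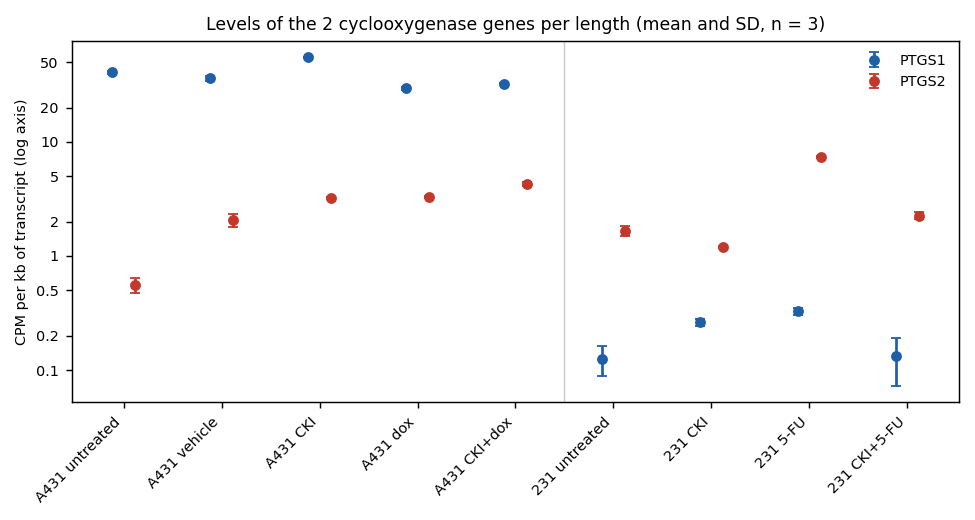
Level of PTGS1 and PTGS2 in CPM per kb of canonical transcript on a log axis, in the 5 A431 groups and the 4 MDA-MB-231 groups (labelled 231; dox is doxorubicin), as means with SD of 3 libraries. PTGS1 lies between 29.4 and 55.0 in A431 and between 0.125 and 0.329 in MDA-MB-231, while PTGS2 runs from 0.560 in untreated A431 to 7.37 in MDA-MB-231 with 5-FU.

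The 3 terminal synthases moved apart from each other. PTGES (chromosome 9, 132500610 to 132515321, reverse strand), which acts with PTGS2 in inflamed tissue, was called in treatment comparisons of MDA-MB-231 and in none of A431. There it was at 20.6, 25.0 and 25.9 CPM untreated, 62.9, 55.8 and 60.3 CPM with 5-FU and 15.9, 15.2 and 17.6 CPM with CKI plus 5-FU. The 5-FU libraries were above and the combination below all untreated libraries. PTGES rose with 5-FU by 1.33 ± 0.09 (adjusted p = 2.6e-07) and fell by 1.88 ± 0.09 when CKI was added (adjusted p = 3.9e-08). With CKI alone it was at 17.7, 17.1 and 18.3 CPM (-0.43 ± 0.09, adjusted p = 0.0039). In A431 its group means lay between 25.8 ± 1.5 CPM (SD, n = 3) with CKI and 43.1 ± 1.2 CPM with CKI plus doxorubicin, and none of its 6 differences between A431 groups passed the fold threshold. The difference of CKI from untreated was -0.57 ± 0.08 (adjusted p = 1.2e-06) and from the vehicle -0.44 ± 0.08 (adjusted p = 4.4e-05).

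PTGES2 (chromosome 9, 130882972 to 130890741, reverse strand) fell in A431 with CKI and with doxorubicin, and was not called in any treatment comparison of MDA-MB-231. Untreated A431 libraries were at 152, 144 and 156 CPM, the vehicle libraries at 89.5, 103 and 137 CPM, the CKI libraries at 56.4, 61.5 and 57.9 CPM, and the doxorubicin libraries at 47.1, 41.6 and 45.6 CPM. None of these groups overlapped another, and the vehicle libraries were the most spread. From untreated cells the gene fell by 1.44 ± 0.10 with CKI (adjusted p = 9.5e-12) and by 1.80 ± 0.10 with doxorubicin (adjusted p = 1.6e-13), and doxorubicin with and without CKI overlapped (-0.01 ± 0.10, adjusted p = 0.91). Against the vehicle, CKI gave -1.003 ± 0.099 (adjusted p = 5.6e-09), at the edge of the fold threshold. This call was lost without vehicle control replicate 3 (-0.82), without CKI replicate 1 (-0.98) and without CKI replicate 3 (-0.996). The transcript of PTGES2 is 59.2% GC, and its level in the vehicle libraries followed the order of their tilt with GC content. With offsets for GC content and length the difference of CKI from the vehicle was -1.13 without the replicate block and -1.13 with it, and both were called. In MDA-MB-231 the levels were 67.3, 101 and 98.7 CPM untreated, with the low value in the replicate that stood apart, and group means lay between 82.6 ± 4.1 CPM with 5-FU and 104 ± 3 CPM with CKI.

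PTGES3 (chromosome 12, 57057125 to 57082192, reverse strand) fell in A431 with doxorubicin, from 554, 571 and 580 CPM untreated to 226, 233 and 231 CPM, by 1.36 ± 0.06 (adjusted p = 6.6e-16). With CKI it was at 375, 362 and 374 CPM, below all untreated and vehicle libraries, and the difference was -0.69 ± 0.05 from untreated (adjusted p = 1.1e-10) and -0.85 ± 0.05 from the vehicle (adjusted p = 4.3e-12), inside the fold threshold. In MDA-MB-231 its means lay between 300 ± 12 CPM with 5-FU and 352 ± 50 CPM untreated, where the replicate that stood apart was at 409 CPM and the others at 325 and 322 CPM. PTGES3 and PTGER4 have pseudogene copies elsewhere in the genome, and the sources used here do not say how reads that fit several places were counted, so their levels are less certain.

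HPGD (chromosome 4, 175411326 to 175444305, reverse strand), which carries out the first step of prostaglandin breakdown, was low in all groups and rose with CKI in A431. It had 7, 1 and 3 counts in the untreated A431 libraries, 9, 4 and 2 with the vehicle, 27, 32 and 28 with CKI, 5, 4 and 4 with doxorubicin and 9, 7 and 9 with CKI plus doxorubicin. The CKI libraries lay above all other A431 libraries, and several of the controls were at or under the floor of 3 counts. Its log2 fold change with CKI was 2.71 ± 0.43 against untreated (95% interval 1.81 to 3.61, adjusted p = 7.6e-06) and 2.38 ± 0.41 against the vehicle (95% interval 1.54 to 3.22, adjusted p = 1.9e-05). These values rested on few counts in the controls. Over the alternatives they ran from 2.23 to 3.56 against untreated and from 2.01 to 3.14 against the vehicle. The highest were found without untreated replicate 1 and without vehicle control replicate 1. HPGD fell by 1.85 ± 0.36 when doxorubicin was added to CKI (adjusted p = 9.1e-05). In MDA-MB-231 the counts were 18, 21 and 16 untreated, 36, 30 and 25 with CKI, 5, 15 and 9 with 5-FU and 17, 15 and 30 with CKI plus 5-FU. The difference with CKI was 0.72 ± 0.33 (adjusted p = 0.11) and with 5-FU -0.97 ± 0.40 (adjusted p = 0.058), neither of them called. HPGD was called higher with CKI plus 5-FU than with 5-FU (1.07 ± 0.40, adjusted p = 0.040), although the libraries overlapped, and the call was lost without 5-FU replicate 1 (0.74), 5-FU replicate 3 (1.03) or CKI plus 5-FU replicate 3 (0.68), with the replicate block (1.06), and with offsets for GC content and length without it (0.994) and with it (0.992). Reads of HPGD overlap an antisense transcript over 314 bases, which unstranded libraries cannot separate.

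Of the receptors, PTGER4 (chromosome 5, 40680017 to 40693837, forward strand) had the larger changes from untreated A431 with the vehicle, CKI and doxorubicin. In A431 it was at 1.26, 2.09 and 2.92 CPM untreated, 9.05, 10.3 and 8.57 CPM with the vehicle, and 9.37, 9.61 and 8.35 CPM with CKI. The vehicle and CKI libraries overlapped each other and lay above all untreated libraries. With doxorubicin it was at 17.8, 18.3 and 16.1 CPM, the highest of the line, and with CKI plus doxorubicin at 10.5, 9.51 and 10.6 CPM, overlapping the vehicle. PTGER4 rose over untreated by 2.18 ± 0.17 with the vehicle (adjusted p = 2.8e-09), 2.05 ± 0.17 with CKI (adjusted p = 3.8e-10) and 3.01 ± 0.16 with doxorubicin (adjusted p = 7.1e-14). CKI and the vehicle differed by -0.13 ± 0.13 (95% interval -0.40 to 0.15, adjusted p = 0.41), and with the vehicle as control the doxorubicin difference was 0.83, no longer called. In MDA-MB-231 it was at 8.50, 8.35 and 10.8 CPM untreated, 7.06, 7.82 and 8.39 CPM with CKI, 17.7, 16.7 and 14.8 CPM with 5-FU and 5.17, 5.84 and 6.39 CPM with CKI plus 5-FU. The 5-FU libraries lay above and the combination below all others, and PTGER4 fell by 1.502 ± 0.127 when CKI was added to 5-FU (adjusted p = 2.1e-06). Untreated A431 was 2.10 ± 0.21 below untreated MDA-MB-231 (adjusted p = 8.2e-07), and the difference was 0.08 with the vehicle control standing for A431.

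PTGER2 (chromosome 14, 52781023 to 52795316, forward strand), the other cAMP-raising receptor of prostaglandin E2 among the 9, rose with doxorubicin in A431. It was at 1.68, 2.15 and 2.55 CPM untreated, 1.84, 1.46 and 1.53 CPM with the vehicle, 1.77, 1.67 and 1.95 CPM with CKI and 6.50, 4.97 and 6.97 CPM with doxorubicin. The first 3 groups overlapped one another, and doxorubicin lay above all of them, by 1.48 ± 0.18 from untreated (adjusted p = 8.0e-08). With the vehicle as control the doxorubicin difference of PTGER2 was 1.86 and still called, larger than that of PTGER4 (0.83, not called). CKI plus doxorubicin was at 2.96, 3.20 and 3.41 CPM, -0.92 ± 0.16 from doxorubicin (adjusted p = 2.6e-05), and this passed the fold threshold only without doxorubicin replicate 2 (-1.05). In MDA-MB-231 the gene was at 1.36, 1.56 and 1.76 CPM untreated and 3.70, 2.41 and 2.75 CPM with CKI, a difference of 0.91 ± 0.20 (adjusted p = 0.0040) that passed the fold threshold without untreated replicate 3 (1.01) or without CKI replicate 2 (1.05). It rose by 1.12 ± 0.21 from 5-FU, at 1.37, 1.28 and 1.04 CPM, to CKI plus 5-FU, at 2.98, 2.78 and 2.27 CPM (adjusted p = 8.3e-04).

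In A431 the vehicle control shared 2 of the called changes of CKI. Of the 9 genes, 2 were called against untreated cells with the vehicle, PTGS2 and PTGER4, both of them higher, and 2.54% of the 15881 genes tested were called in either direction. By the adjusted p alone, without the fold threshold, 5 of the 9 passed, as did 42.5% of all genes. With CKI against untreated cells, 5 of the 9 were called, PTGS2, HPGD, PTGER4 and PLA2G4A higher and PTGES2 lower, against 22.4% of all genes tested (by the adjusted p alone 8 of the 9, and 67% of all genes). With CKI against the vehicle, 3 of the 9 were called, HPGD and PLA2G4A higher and PTGES2 lower, against 19.5% of all genes tested (by the adjusted p alone 7, and 65%). The comparisons share libraries, so they are not independent of each other. The median log2 fold change of the 9 genes was 0.36 for CKI against untreated and 0.07 for CKI against the vehicle, and that of all genes was 0.00 in both.

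**Figure D3:**
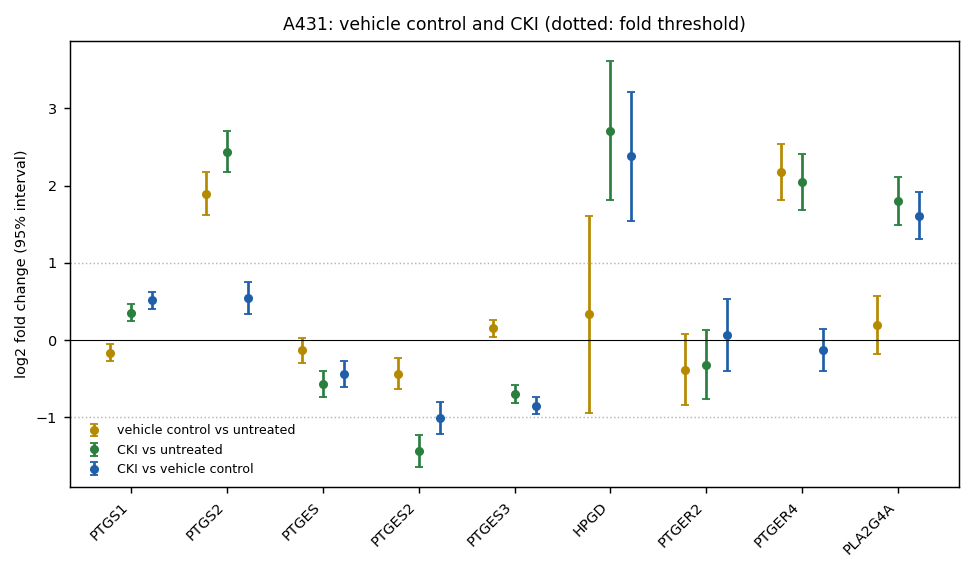
Log2 fold change of the 9 genes in A431 for the vehicle control against untreated, CKI against untreated and CKI against the vehicle control, as points with 95% intervals; dotted lines mark the fold threshold. PTGS2 and PTGER4 lie above the threshold for the vehicle (1.89 and 2.18) and inside it for CKI against the vehicle (0.55 and -0.13), where the interval of PTGER4 includes 0 and that of PTGS2 does not, while HPGD and PLA2G4A lie above it for CKI against either control.

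Doxorubicin in A431 changed both cAMP-raising receptors and PTGS2 upward and 2 terminal synthases downward. Against untreated cells 5 of the 9 genes were called, PTGS2, PTGER2 and PTGER4 higher and PTGES2 and PTGES3 lower, beside 37.3% of all genes tested (by the adjusted p alone 6, and 80.6%). When CKI was added to doxorubicin, only PLA2G4A was called (14.9% of all genes), and when doxorubicin was added to CKI, only HPGD (25.7% of all genes). By the adjusted p alone 7 of the 9 passed in the former comparison (63.6% of all genes) and 8 in the latter (73.3%). With the vehicle control as the reference for doxorubicin, 3 of the 9 were called, PTGER2, PTGES2 and PTGES3, beside 38.5% of all genes. With library size alone for scaling, the median log2 fold change of all genes was 0.36 for doxorubicin against untreated in place of 0.02, so the size of a change depends on the scaling. No call of the 9 genes in this comparison changed with that scaling. PTGES, HPGD and PLA2G4A, which were not called, changed direction. The leukocyte markers PTPRC and CD3E (2 of the 3 markers of other cells that were chosen had a row in the table) summed to 28 to 42 counts per library in both doxorubicin groups and to 0 or 1 in the other A431 libraries, where PTPRC was at 0 throughout. The 5 markers of MDA-MB-231 (VIM, ZEB1, CDH2, SPARC and FN1) summed to 709 to 728 CPM with doxorubicin and 1089 to 1145 CPM with CKI plus doxorubicin, against 185 to 198 CPM in untreated A431 and 459 to 483 CPM with CKI. FN1, which codes for fibronectin, made most of these sums, and ZEB1, CDH2 and SPARC were under 2 CPM on average in all A431 groups. Whether these markers have a part in the results was not tested.

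In MDA-MB-231, more of the 9 genes were called for CKI added to 5-FU than for either agent against untreated cells. Against untreated cells, 2 of the 9 were called with CKI, PTGS1 and PLA2G4A, both higher (5.96% of the 13999 genes tested), and 3 with 5-FU, PTGS1, PTGS2 and PTGES, all higher (13.3% of all genes). By the adjusted p alone 5 passed with CKI (36.2% of all genes) and 6 with 5-FU (57.1%). For CKI plus 5-FU against 5-FU, 7 of the 9 were called (9.77% of all genes), the same number as passed by the adjusted p alone (50.4%). HPGD, PTGER2 and PLA2G4A were higher, and PTGS1, PTGS2, PTGES and PTGER4 were lower. The 4 genes that were lower had all been above untreated cells with 5-FU, by 1.41, 2.15, 1.33 and 0.84 on the log2 scale, the last of which was not called. For CKI plus 5-FU against CKI no gene of the 9 was called by edgeR (3.81% of all genes), 4 had an unadjusted p and also an adjusted p under 0.05 (42.1% of all genes had the latter), and DESeq2 called 1, PTGS1. The largest differences there were PTGS1 at -0.98 ± 0.28 (adjusted p = 0.015) and PTGS2 at 0.93 ± 0.09 (adjusted p = 2.5e-05). PTGS1 was past the fold threshold without CKI replicate 2 (-1.05) or without CKI plus 5-FU replicate 3 (-1.38), and HPGD without the latter (-1.01). Without untreated replicate 1, which stood apart, the counts of called genes were 2 for CKI and 3 for 5-FU as with it, and the called changes lay between 1.22 and 2.24. In these fits 926 and 2133 genes were called among all those tested, a number that is not given for them. The 5 MDA-MB-231 markers summed to 2802 to 3274 CPM in untreated cells and to 1230 to 1713 CPM in the treated groups. They did not all move with their sum, since 1 rose and 2 fell with CKI, and 1 rose and 1 fell with 5-FU. The part of these markers in the results was not tested.

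**Figure D4:**
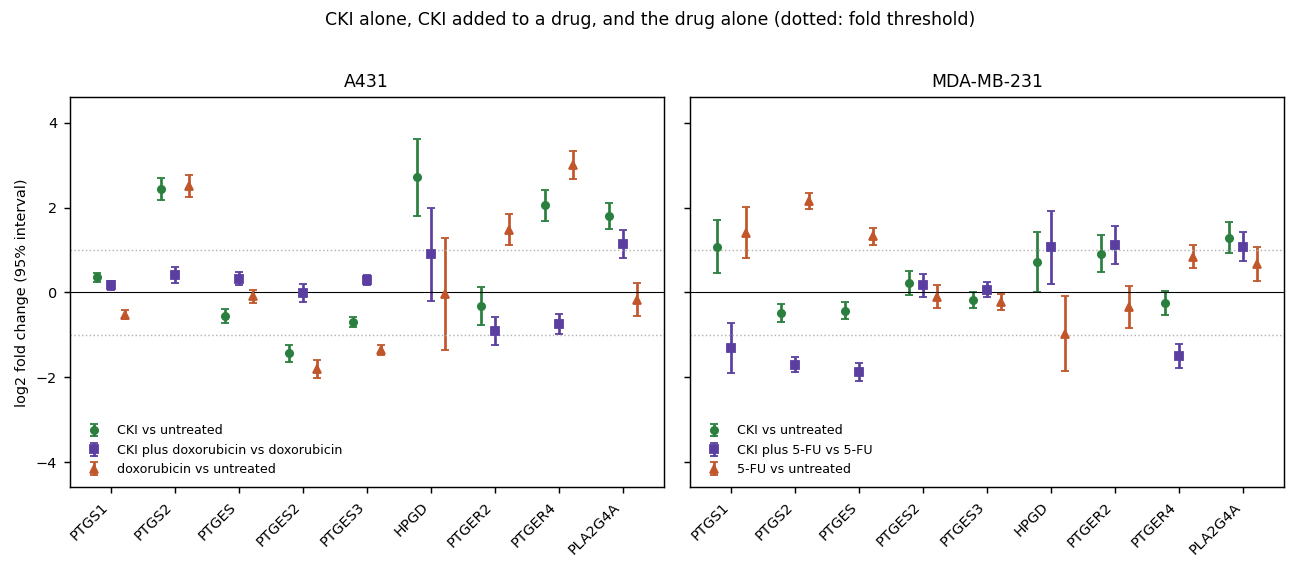
Log2 fold change of the 9 genes for CKI against untreated, CKI plus a drug against the drug, and the drug against untreated, with 95% intervals, for A431 with doxorubicin (left) and MDA-MB-231 with 5-FU (right); dotted lines mark the fold threshold. In MDA-MB-231 PTGS2 and PTGES lie above the threshold with 5-FU (2.15 and 1.33) and below it when CKI was added to 5-FU (-1.70 and -1.88), and PLA2G4A lies above it for CKI with and without a drug in both lines.

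The effect of CKI depended on the drug for 4 of the 9 genes in each line, as tested by the interaction term, which is the effect of CKI with the drug minus that without it. With doxorubicin it was called for PTGS2, PTGES2, HPGD and PTGER4 (19.5% of all genes), and with 5-FU for PTGS1, PTGS2, PTGES and PTGER4 (6.84% of all genes). By the adjusted p alone 8 passed with doxorubicin (57.4% of all genes) and 4 with 5-FU (31.4%). PTGER4 had the largest interaction with doxorubicin, at -2.80 ± 0.21 (adjusted p = 1.9e-10), since CKI gave 2.05 alone and -0.74 with doxorubicin. PTGS1 had the largest with 5-FU, at -2.39 ± 0.40 (adjusted p = 8.8e-04), since CKI gave 1.08 alone and -1.31 with 5-FU. That value rests on 9 to 38 counts per library. Computed from the vehicle control and not from untreated A431, the interaction of PTGS2 with doxorubicin was -0.14 and that of PTGER4 -0.62, and 1 gene of the 9, PTGES3, was called, beside 21.1% of all genes. The effect of CKI differed between the lines for 5 of the 9 genes (18.5% of the 14848 genes tested; 7 and 47% by the adjusted p alone), PTGS2, HPGD and PTGER4 with a higher value in A431 and PTGES2 and PTGER2 with a lower one. PTGS2 differed most, at 2.92 ± 0.18 (adjusted p = 6.4e-08), and at 1.03 with the vehicle as the A431 control. Between the untreated lines 4 of the 9 were called, PTGS1 higher and PTGS2, HPGD and PTGER4 lower in A431, beside 42.9% of all genes tested. By the adjusted p alone 7 passed, and 78.6% of all genes. For HPGD the difference was -1.98, and it ran from -2.91 to -1.58 over the alternatives.

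**Figure D5:**
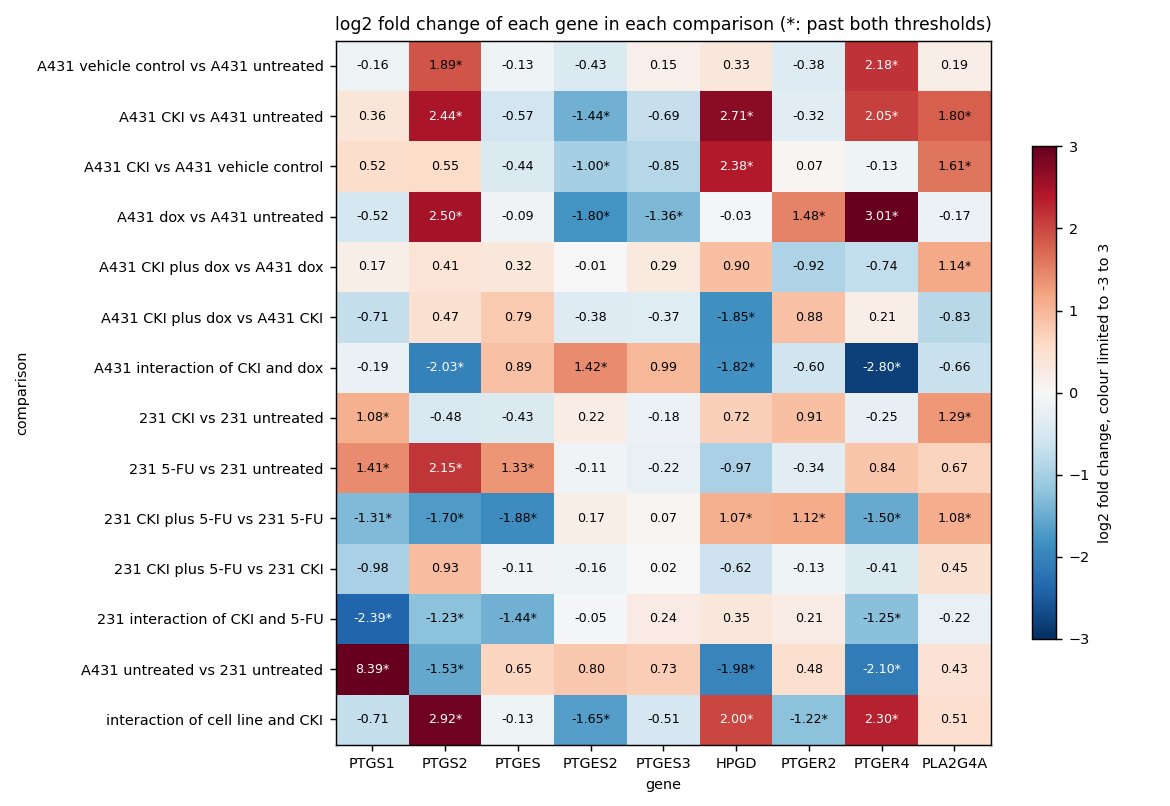
Log2 fold change of each of the 9 genes (columns) in each of the 14 comparisons (rows), with the value in each cell and a star where both thresholds were passed; 231 is MDA-MB-231, dox is doxorubicin, and colours stop at 3 in either direction. The row for CKI plus 5-FU against 5-FU holds 7 starred values, and the row for CKI plus 5-FU against CKI holds none.

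Other genes of the pathway or linked to it were grouped into 7 lists of 73 genes by their textbook roles. The 73 include 8 genes of proteins that act on PTGS2 mRNA and 10 genes known to respond to cAMP. These are not part of the pathway itself, so the pooled counts below do not describe the pathway alone. In A431, 19 of the 61 that passed the filter rose with CKI and 2 fell, 34.4% of them against 22.4% of all genes, with a median log2 fold change of 0.37 (0.00 over all genes). Against the vehicle 15 rose and 2 fell, 27.9% against 19.5% of all genes (median 0.35). With doxorubicin 16 rose and 11 fell, 44.3% against 37.3% of all genes (median 0.18), and with the vehicle against untreated 3 rose and 1 fell, 6.56% against 2.54% (median 0.02). In MDA-MB-231, 53 passed the filter. There 4 rose and 5 fell with CKI, 4 rose and 6 fell with 5-FU, and 6 rose and 4 fell when CKI was added to 5-FU, with medians of 0.04, -0.05 and -0.04. These were 17%, 18.9% and 18.9% of the 53, against 5.96%, 13.3% and 9.77% of all genes. When 5-FU was added to CKI, 1 rose and 1 fell, 3.77% against 3.81% of all genes. The lists were chosen with earlier results known, and no test compared them with other genes.

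Among the 15 genes of arachidonate release and recycling, 13 were measured in A431. With CKI 5 of them rose, PLA2G4C, PLA2G10, MGLL, ACSL3 and ACSL4, and none fell. ACSL4, which loads arachidonate onto coenzyme A, rose from 49.7 to 51.9 CPM untreated to 169 to 172 CPM (1.67 ± 0.07, adjusted p = 1.1e-15). With doxorubicin PLA2G4C and PLA2G10 rose and PLA2G4F fell. PLA2G4C, a calcium-independent relative of PLA2G4A, went from 0.936 to 1.18 CPM to 40.8 to 44.4 CPM (5.26 ± 0.15, adjusted p = 1.4e-18). In MDA-MB-231, of 11 measured, PLA2G2A and PLA2G4C fell with CKI, PLA2G2A fell and PLA2G4C rose with 5-FU, and PLA2G12A rose when CKI was added to 5-FU. PLA2G2A, a secreted phospholipase, was at 2.34 to 3.13 CPM untreated and at 0.615 to 0.637 CPM with 5-FU (-2.18 ± 0.20, adjusted p = 2.4e-06). PLA2G12A, another of the secreted enzymes, was at 25.6 to 30.6 CPM with 5-FU and 55.2 to 57.8 CPM with the combination (1.01 ± 0.09, adjusted p = 3.0e-06).

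The other prostanoid synthases lead to prostaglandins D and F, prostacyclin and thromboxane, and 7 of the 9 were measured in A431. AKR1C3 and AKR1B1, a pair of reductases that make prostaglandin F, and PTGIS, the prostacyclin synthase, rose with CKI over the vehicle, and none fell. Against untreated cells AKR1C3 and AKR1B1 rose with CKI, and PTGIS fell with the vehicle. AKR1C3 was at 12.8 to 13.5 CPM in untreated A431, 8.21 to 9.05 CPM with the vehicle and 146 to 157 CPM with CKI, 4.06 ± 0.08 over the vehicle (adjusted p = 1.2e-20). AKR1B1 rose over the vehicle from 168 to 169 CPM to 484 to 498 CPM (1.45 ± 0.05, adjusted p = 1.1e-16). Near-identical AKR1C genes can share the reads of AKR1C3. With doxorubicin PTGIS rose, and AKR1C3 and PRXL2B fell. In MDA-MB-231, AKR1C3 and AKR1B1 were the only 2 of 6 called with CKI and also when CKI was added to 5-FU, all of them higher. AKR1B1 rose with CKI from 175 to 181 CPM to 539 to 557 CPM (1.62 ± 0.05, adjusted p = 1.7e-09), and AKR1C3 rose by 2.22 ± 0.22 over 5-FU (19.4 to 21.1 CPM to 88.3 to 102 CPM, adjusted p = 8.5e-06).

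Of the 10 genes of inactivation and transport, all measured in A431, PTGR1, CYP4F2, CYP4F3 and CYP4F11 rose with CKI and none fell, and the same 4 were called higher over the vehicle. CYP4F11, a fatty acid hydroxylase, rose from 27.3 to 32.0 CPM to 117 to 125 CPM (1.94 ± 0.07, adjusted p = 4.8e-17). With doxorubicin SLCO2A1 and CYP4F2 rose, and SLCO3A1, ABCC1, CYP4F11 and PTGR3 fell. SLCO3A1, a prostaglandin transporter, went from 109 to 117 CPM to 26.7 to 30.8 CPM (-1.99 ± 0.07, adjusted p = 2.1e-17). In MDA-MB-231, of 7 measured, PTGR1 rose with CKI and SLCO2A1 fell with CKI, with 5-FU and when CKI was added to 5-FU. PTGR1, the reductase that acts after HPGD, rose from 46.3 to 49.2 CPM to 95.7 to 97.9 CPM (1.02 ± 0.06, adjusted p = 2.3e-07). SLCO2A1, which takes up prostaglandins for breakdown, fell with 5-FU from 1.95 to 3.81 CPM to 0.501 to 0.995 CPM (-1.79 ± 0.33, adjusted p = 6.3e-04).

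Of the 9 other prostanoid receptors and receptor-linked genes, 5 were measured in each line. None was called with CKI in A431 against either control. With doxorubicin PTGER1 and PTGER3, the remaining receptors of prostaglandin E2, and PTGDR2, a receptor of prostaglandin D2, rose, and PTGFRN, which binds the prostaglandin F receptor, fell. PTGFRN also fell when doxorubicin was added to CKI, from 344 to 375 CPM to 127 to 137 CPM (-1.41 ± 0.06, adjusted p = 1.7e-15), as did PPARG, a nuclear receptor of fatty acids, from 28.2 to 31.0 CPM to 12.4 to 15.8 CPM (-1.08 ± 0.09, adjusted p = 2.8e-10). In MDA-MB-231, PTGFR fell with CKI, and with 5-FU PTGER1 and TBXA2R rose and PTGFRN fell. TBXA2R, the thromboxane receptor, was at 1.25 to 4.20 CPM untreated and 6.10 to 6.68 CPM with 5-FU (1.13 ± 0.27, adjusted p = 0.0037). PTGFRN went from 25.6 to 36.4 CPM to 11.1 to 12.6 CPM (-1.37 ± 0.12, adjusted p = 1.8e-06). When CKI was added to 5-FU, PTGER1 fell.

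The lipoxygenase and leukotriene branch competes for arachidonate, and 8 of its 12 genes were measured in A431. ALOX5, the 5-lipoxygenase, and CYSLTR1, a leukotriene receptor, rose with CKI against either control, and none fell. ALOX5 went from 6.28 to 6.83 CPM untreated to 21.7 to 24.6 CPM (1.72 ± 0.09, adjusted p = 2.0e-13). With doxorubicin ALOX15 and CYSLTR1 rose. ALOXE3, an epidermal lipoxygenase, rose when doxorubicin was added to CKI, from 1.82 to 2.62 CPM to 7.42 to 7.88 CPM (1.88 ± 0.16, adjusted p = 4.8e-10). In MDA-MB-231, of 6 measured, ALOXE3 rose with CKI, ALOX5 fell with 5-FU, and both rose when CKI was added to 5-FU, ALOX5 by 1.67 ± 0.40 (adjusted p = 0.0040) and ALOXE3 by 1.87 ± 0.61 (adjusted p = 0.022). Both stayed at 1.06 CPM or less in that line.

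Proteins that bind AU-rich elements set the half-life of many mRNAs, PTGS2 mRNA among them, and all 8 of the list were measured in both lines. ZFP36, which promotes decay, rose with the vehicle in A431 from 27.1 to 32.2 CPM to 111 to 118 CPM (2.02 ± 0.07, adjusted p = 6.9e-16). With CKI, ZFP36 and ZFP36L1 rose and KHSRP and HNRNPD fell against untreated cells, and against the vehicle KHSRP and HNRNPD fell. With doxorubicin CELF2 rose, and ELAVL1 and HNRNPD fell. HNRNPD, also known as AUF1, went from 986 to 1029 CPM to 264 to 288 CPM (-1.92 ± 0.05, adjusted p = 4.1e-19). In MDA-MB-231 none was called with CKI, TIA1 and CELF2 fell with 5-FU, and ZFP36 rose when CKI was added to 5-FU, from 22.3 to 24.3 CPM to 48.1 to 58.2 CPM (1.25 ± 0.10, adjusted p = 1.6e-06). CELF2 went from 31.8 to 37.6 CPM to 15.9 to 16.2 CPM (-1.13 ± 0.09, adjusted p = 5.9e-07).

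Of 10 genes known to respond to cAMP, the messenger that PTGER2 and PTGER4 raise, all were measured in both lines. In A431, NR4A1 and NR4A2 rose with the vehicle, NR4A1, NR4A2, NR4A3 and PPARGC1A with CKI, and NR4A1 and NR4A3 with CKI over the vehicle, and none fell in these comparisons. NR4A1, an immediate early nuclear receptor, was at 13.6 to 14.1 CPM untreated, 42.0 to 54.3 CPM with the vehicle and 125 to 136 CPM with CKI, 3.13 ± 0.08 over untreated (adjusted p = 7.8e-19). With doxorubicin NR4A1, NR4A2, NR4A3, CREM and PDE4B rose and PPARGC1A fell. PPARGC1A, a coactivator of mitochondrial genes, also fell when doxorubicin was added to CKI, from 100 to 109 CPM to 21.2 to 24.2 CPM (-2.15 ± 0.08, adjusted p = 2.0e-16). In MDA-MB-231, PDE4B, a phosphodiesterase that breaks down cAMP, fell with CKI, rose with 5-FU and fell when CKI was added to 5-FU, the last from 24.3 to 24.9 CPM to 3.93 to 4.29 CPM (-2.57 ± 0.14, adjusted p = 8.8e-08). SIK1, a kinase, fell in the same comparison from 136 to 153 CPM to 63.5 to 69.8 CPM (-1.12 ± 0.12, adjusted p = 1.2e-05).

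Across the 9 group means of log2 CPM, the genes whose pattern was most like that of PTGS2 among 16668 compared were PELI1 (Pearson's r = 0.98), TRAF6 (0.94), FRS2 (0.93), AMMECR1L (0.92) and SLC25A25 (0.92). PTGER4 ranked at 57 with r = 0.84, the closest of the other 8 genes of the set, and PTGES2 was the most unlike at -0.71. For PTGES the most alike were ZNF888 (0.92), TFIP11 (0.90), PPIF (0.89), CRISPLD1 (0.88) and CCDC134 (0.88). These are descriptions over 9 points that share cell line, scaling and control libraries.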

How the data were processed

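The authors deposited raw counts per gene, 1 column per library, from unstranded paired-end reads of total RNA. The submitters' processing notes name Trim Galore 0.3.7, STAR 2.5.3a and hg19, and the counting tool and annotation are not given in the sources used here. Of 24566 rows, 1597 held no count anywhere. The 15 A431 libraries, the 12 MDA-MB-231 libraries and, between lines, the 12 untreated and CKI libraries were each fitted with edgeR 4.0.16 under R 4.3.3 (TMM, filterByExpr, glmQLFit, glmQLFTest, group as the only factor), with the thresholds of the study's methods. SEs were derived from the F statistic. CPM and log2 CPM (prior count 2) were computed from the deposited counts. Coordinates, canonical transcript lengths and GC content came from a GRCh37 annotation, promoters from RefSeq. Fits were first tested on simulated counts. Every pair of replicates differed by more than sampling noise, and the smallest chi-square per degree of freedom of a pair was 1.84. Replicate numbers were taken from the labels, and p-values measure the spread between these cultures of 1 line.

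The members and lists were chosen with earlier results of these data known. Beside the 9 genes, the text gives values for the 2 genes of smallest adjusted p per list and line among called treatment comparisons whose groups did not overlap, and names the members of counts of 5 or fewer. Alternatives were DESeq2 1.42.0, RLE factors, library size alone, no filter or at least 10 counts in every library, 1 row per Ensembl ID, the compared groups alone, the adjusted p alone, the vehicle standing for untreated A431, the replicate number as a block, offsets for GC content and length with and without that block, and leaving out each replicate.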

Additional observations from a re-analysis of the deposited data

Results flagged for a closer look

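The effect of CKI differed between cells with and without a drug, or between the lines, by a test of the difference itself for these values. In A431 the interaction of CKI and doxorubicin on the log2 scale was -2.03 for PTGS2, 1.42 for PTGES2, -1.82 for HPGD and -2.80 for PTGER4. Computed from the vehicle control and not from untreated A431, it was -0.14 for PTGS2, 0.99 for PTGES2, -1.48 for HPGD and -0.62 for PTGER4, and none of these 4 was called. The interaction of HPGD was also lost without each of the A431 libraries of its 4 groups other than untreated replicate 1 and CKI replicate 1, at values from -1.33 to -1.91, was at -2.66 without untreated replicate 1, and rests on groups with 1 to 32 counts.

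In MDA-MB-231 the interaction of CKI and 5-FU was -2.39 for PTGS1, -1.23 for PTGS2, -1.44 for PTGES and -1.25 for PTGER4. All 4 were called without untreated replicate 1, the library that stood apart, at -2.64, -1.31, -1.35 and -1.20. The interaction of PTGS1 rests on groups with 9 to 38 counts.

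Between the lines, the effect of CKI in A431 minus that in MDA-MB-231 was 2.92 for PTGS2, -1.65 for PTGES2, 2.002 for HPGD, -1.22 for PTGER2 and 2.30 for PTGER4. With the vehicle control as the A431 reference the values were 1.03, -1.22, 1.67, -0.84 and 0.13, so PTGER2 and PTGER4 were no longer called. PTGER2 was also lost without A431 untreated replicate 3 (-0.98) and with offsets for GC content and length plus the replicate block (-0.997). HPGD ran from 1.61 to 2.94 over the alternatives, and was highest without A431 untreated replicate 1.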

How the results depend on the processing

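Of 2300 log2 fold changes of the 9 genes under an alternative, 2155 kept their direction and their side of the thresholds, 60 gained a call, 38 lost one and 47 reversed. The alternatives counted include the adjusted p alone, which repeats the fold change of the main fit. It drops the fold threshold and so can only add calls, and calls gained there are not changes of a value. All reversals but those of PTGS2 and PTGER4 between the lines concern values that were not called. Low counts limit HPGD, with 1 to 36 counts per library, and PTGS1 in MDA-MB-231. Where no cause is given, the cause was not tested.

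By the adjusted p alone the number of the 9 genes that passed was 5 for the vehicle, 8 for CKI and 7 for CKI over the vehicle, 7 for CKI plus doxorubicin over doxorubicin and 8 over CKI, 8 for the interaction with doxorubicin, 5 for CKI and 6 for 5-FU in MDA-MB-231, 4 for CKI plus 5-FU over CKI and 7 between the lines. The shares of all genes that passed are given with each comparison above. With at least 10 counts in every library, which removes low genes such as HPGD, 1 of the 9 was called for CKI over the vehicle, 0 for CKI plus doxorubicin over CKI and 1 for CKI in MDA-MB-231. In the same fits 1989, 1837 and 504 genes were called among those that passed this stricter filter. The number that passed it is not given, so no share is stated. With the vehicle standing for untreated A431, 3 were called for doxorubicin (38.5% of all genes) and 1 for its interaction with CKI (21.1%). With that control 2 were called between the lines (42% of all genes) and 3 for the CKI effect between the lines (14.5%). For CKI plus doxorubicin over CKI, 2 were called with library size alone, 2 with offsets for GC content and length and 2 with these and the block. In these fits 4157, 3951 and 3945 of all genes were called. DESeq2 called 1 for CKI plus 5-FU over CKI, beside 534 of all genes.

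Without 1 replicate at a time, the number called was 2 to 2 for the vehicle, 5 to 5 for CKI, 2 to 3 for CKI over the vehicle, 5 to 5 for doxorubicin, 1 to 2 for CKI plus doxorubicin over doxorubicin and 1 to 1 over CKI, and 3 to 5 for the interaction. In MDA-MB-231 it was 1 to 3 for CKI, 3 to 4 for 5-FU, 6 to 7 for CKI plus 5-FU over 5-FU, 0 to 2 over CKI and 4 to 4 for the interaction, and between the lines 4 to 4 and, for the CKI effect, 4 to 5. No share of all genes is given beside these counts, so they are not set against all genes. HPGD with 5-FU was at -1.44 without 5-FU replicate 2, past the threshold, and PTGES3 had an interaction with doxorubicin of 1.02 without A431 untreated replicate 1 and 1.01 without CKI plus doxorubicin replicate 1.

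Samples of 1 replicate number did not deviate together across groups (correlations -0.14 to 0.07), and all 3 correlated best with their own number in 1 of 11 comparisons. The replicate block called 2 of the 9 for CKI over the vehicle, losing PTGES2 (-0.99), and 6 for CKI plus 5-FU over 5-FU, losing HPGD (1.06), and left the number called in the other comparisons as it was. The share of all genes called with the block is not given, so these counts are not set against all genes. PTGES2 with CKI over the vehicle was also not called with DESeq2 (-0.957), RLE factors (-0.957), library size alone (-0.89), at least 10 counts (-0.955) or the compared groups alone (-0.989).

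With offsets for GC content and length, without and with the block, reversed values were 0.124 and 0.123 for PTGES, -0.00793 and -0.00761 for PTGES3 and -0.0287 and -0.029 for PLA2G4A with the vehicle, 0.15 and 0.151 for PTGES2 with CKI plus doxorubicin over doxorubicin, 0.00303 and 0.00486 for PTGES2 with 5-FU, and 0.0453 and 0.0446 for PTGES, 0.103 and 0.102 for PTGES2 and -0.13 and -0.13 for PTGES3 with CKI plus 5-FU over CKI. They were 0.0997 and 0.0973 for PTGES2 in the interaction with 5-FU, and 0.309 and 0.31 for PTGES in the CKI effect between the lines. For doxorubicin, PTGES was at 0.251 with library size alone, 0.0724 with at least 10 counts and 0.0348 against the vehicle, HPGD at 0.0522 with DESeq2, 0.0557 with RLE factors and 0.303 with library size alone, and PLA2G4A at 0.173 with library size alone. Library size alone also gave 0.026 for PTGES2 with 5-FU, and no filter 0.00621 for PTGES2 with CKI plus doxorubicin over doxorubicin. With the vehicle for untreated A431, PTGS2 was at 0.368 and PTGER4 at 0.0791 between the lines, and PTGES at 0.00228 in the CKI effect between the lines.

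Values that leaving out 1 replicate reversed in at least 1 case had these ranges over the replicates left out: HPGD -0.429 to 1.18 with the vehicle and -0.527 to 0.804 with doxorubicin, PTGER2 -0.00627 to 0.171 with CKI over the vehicle and -0.266 to 0.0695 with CKI plus 5-FU over CKI, PTGES2 -0.0633 to 0.0245 with CKI plus doxorubicin over doxorubicin and -0.155 to 0.115 in the interaction with 5-FU, HPGD -0.0409 to 0.820 in that interaction, and PTGES -0.188 to 0.0408 in the CKI effect between the lines. The fit on the compared groups alone could not be made for the interaction with 5-FU or the CKI effect between the lines, which use all groups of their fit.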
